A study of Mus musculus with 2 samples.

Results

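Rag1, Rag2 and Dntt were followed through 1 droplet library of sorted mouse thymocytes, as 3 of the 32285 gene rows that the library reports. They were chosen by name, as the genes of the recombinase and of the polymerase that acts at its cuts. Rag1 and Rag2 encode the RAG1 and RAG2 proteins, which form the complex that cuts DNA at recombination signal sequences beside the V, D and J segments of antigen receptor genes. Dntt encodes terminal deoxynucleotidyl transferase, which adds untemplated N nucleotides to the cut ends before they are joined. In the thymus the recombinase acts at the double-negative (DN) stage, when the Tcrb, Tcrg and Tcrd loci rearrange, and again at the double-positive (DP) stage, when Tcra rearranges. Mature invariant natural killer T (iNKT) cells have completed both rounds.

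The study set thymic iNKT cells of T-KO animals beside those of Ctrl animals, the former made by crossing a floxed Kidins220 allele to pLckCre, in which the proximal Lck promoter drives Cre from early thymocytes onwards. For each genotype the cells of 4 thymi were mixed, so that animals cannot be separated, and all mice were kept on the C57BL/6 background. The methods give a range of ages for the mice of the study as a whole, and none for those pooled here. The NK1.1- CD24+ fraction of TCRβ+ cells that bound the CD1d tetramer (CD1dt) was collected as stage 0, and the CD44+ NK1.1+ CD24- fraction as stage 3. The sorts were run as 2 parallel replicas, each of the resulting 8 populations received its own hashtag antibody, and all were loaded together as 1 single-cell library with 5′ chemistry and V(D)J enrichment.

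The labels speak of hashtags 1 to 8, whereas 99.9% of the hashtag molecules lay on the rows numbered 11 to 18, and nothing in the sources used here pairs one set with the other. Rows were therefore kept without a stage or a genotype, Ctrl and T-KO were not compared, and each row was described as a single value. With 1 library there were no replicates and no test was made. The intervals given are 95% intervals (exact Poisson for levels, Clopper-Pearson for shares, exact conditional binomial for ratios) and cover counting error only.

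Of 16179 barcodes, 12147 had at least 1000 genes and at most 5% mitochondrial unique molecular identifiers (UMIs), and 10007 of these were assigned to a single row. The odd rows (11, 13, 15 and 17) held 4249 cells and the even rows (12, 14, 16 and 18) held 5758. Gene UMIs per row ranged from 2283162 to 14601545. The median cell had 6500 to 8068 UMIs in the odd rows and 3258 to 3804 in the even rows. Klrb1c, which encodes NK1.1, stood at 4.78 to 6.57 UMIs per 1000000 gene UMIs (CPM) in the odd rows and at 328 to 444 CPM in the even rows. Cd24a stood at 313 to 365 CPM in the odd rows and at 23.3 to 34.2 CPM in the even rows. Although every sample is labelled as iNKT cells, the odd rows also held cells with Cd79a, a component of the B cell receptor, or with Cst3, a cysteine protease inhibitor abundant in myeloid cells. The paper's own clustering also found B cells, myeloid cells and both DP and DN thymocytes, and it left them out of its analysis. Zbtb16, which encodes the PLZF factor of iNKT cells, was low in every class of the odd rows, at 0.489 to 13.6 CPM, against 71.5 CPM in the even rows.

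Rag1 and Rag2 are neighbours on chromosome 2 and converge on each other, while Dntt lies alone on chromosome 19. In GENCODE M21 on GRCm38, the annotation closest to the mm10 reference of the files, Rag2 spans chr2:101624718-101632529 on the plus strand and Rag1 spans chr2:101638282-101649501 on the minus strand. The 2 genes are 5.752 kb apart and their start sites 24.8 kb apart. Rag1-201 has 2 exons, of which the second, 6528 bases long, contains the whole coding region. Dntt spans chr19:41029275-41059525 on the plus strand, with 12 exons in Dntt-201. The first exon of Rag1-201, 80 bases long, lies inside the first exon of 3 of the 12 annotated transcripts of B230118H07Rik on the same strand. Reads that end within these bases cannot be told apart between the genes, which matters in a library read from the 5′ end. B230118H07Rik itself was counted at 5.93 to 6.98 CPM in the odd rows and at 0 to 0.496 CPM in the even rows.

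**Figure D1:**
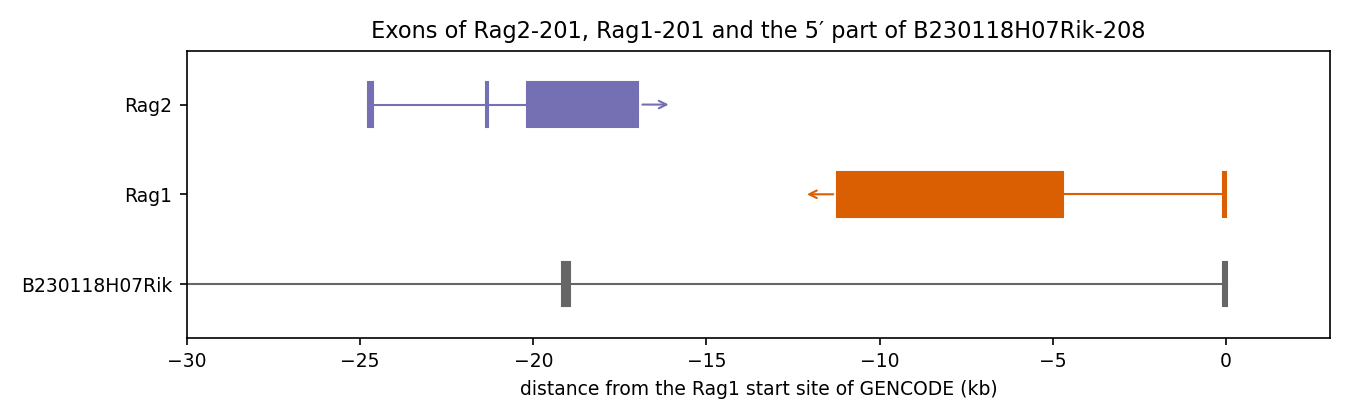
Exons of Rag2-201, Rag1-201 and the 5′ part of B230118H07Rik-208 along chromosome 2, drawn to scale as distance in kb from the GENCODE start of Rag1, with boxes for exons, lines for introns and arrows for the direction of transcription. Rag2 and Rag1 point towards each other across 5.752 kb, and the first exons of Rag1 and B230118H07Rik coincide.

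The promoters are shown because the 3 genes were highest in the same class of cells below. Each sequence is from RefSeq (GRCm38.p6, where all 3 genes had an entry) and runs 5′ to 3′ on the strand of the gene, from 250 bases before the start base to the 49 bases after it. Capitals mark matches, on either strand, of CANNTG (the E-box bound by E proteins), TGTGGT (the RUNX core), CCAAT and GGGAA (the core bound by Ikaros family proteins). Rag1 lies at chr2:101649483-101649782 on the minus strand, Rag2 at chr2:101624462-101624761 on the plus strand and Dntt at chr19:41029025-41029324 on the plus strand.
Rag1: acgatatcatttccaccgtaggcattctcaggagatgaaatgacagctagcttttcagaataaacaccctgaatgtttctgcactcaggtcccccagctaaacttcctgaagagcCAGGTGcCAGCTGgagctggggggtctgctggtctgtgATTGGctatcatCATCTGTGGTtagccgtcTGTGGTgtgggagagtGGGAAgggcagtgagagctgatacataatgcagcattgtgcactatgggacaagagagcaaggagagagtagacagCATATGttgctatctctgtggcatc
Rag2: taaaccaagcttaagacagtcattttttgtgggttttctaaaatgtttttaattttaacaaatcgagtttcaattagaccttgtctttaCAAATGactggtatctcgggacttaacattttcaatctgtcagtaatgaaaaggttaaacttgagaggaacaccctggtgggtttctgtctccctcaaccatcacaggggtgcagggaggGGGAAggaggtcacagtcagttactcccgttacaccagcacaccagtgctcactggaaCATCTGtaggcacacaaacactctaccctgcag
Dntt: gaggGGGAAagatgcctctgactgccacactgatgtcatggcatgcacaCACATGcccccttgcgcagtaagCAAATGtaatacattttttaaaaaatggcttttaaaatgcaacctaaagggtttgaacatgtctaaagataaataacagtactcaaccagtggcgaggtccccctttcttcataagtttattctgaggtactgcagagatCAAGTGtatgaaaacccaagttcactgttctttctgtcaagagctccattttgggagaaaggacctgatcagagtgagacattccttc

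Positions count from the RefSeq start base, which for Rag1 lies 31 bases before the GENCODE start used above. The Rag1 window held 4 E-box matches, at -135, -128, -85 and 25 from the start base, and 2 matches of TGTGGT, at -81 and -67. The first of the TGTGGT matches shares 2 bases with the E-box at -85. Rag1 also had 1 CCAAT on the opposite strand at -97 and 1 GGGAA at -51. The Rag2 window held 2 E-box matches, at -161 and 17, and 1 GGGAA at -41, while the Dntt window held 3 E-box matches, at -201, -178 and -38, and 1 GGGAA at -246. TATAAA, the TATA box, matched in none of the 3. These are common letters: of 32851 mouse promoters of the same length, 72.3% held CANNTG, 62.7% held GGGAA, 37.4% held CCAAT, 16.8% held TGTGGT and 13.6% held TATAAA. GC content was 50% for Rag1, 43% for Rag2 and 42.3% for Dntt, against a median of 52.7% over all promoters.

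All 3 genes were far higher in the odd rows than in the even rows. Rag1, the subunit that carries the catalytic site, was counted at 22.5 CPM in row 11, 29.4 in row 13, 32.8 in row 15 and 35.9 in row 17. In rows 12, 14, 16 and 18 it was counted at 2.64, 4.52, 3.94 and 3.30 CPM. The groups of rows did not overlap, and the pooled odd rows exceeded the pooled even rows 8.12-fold (6.42 to 10.4). Rag2, whose product is the regulatory subunit that binds trimethylated lysine 4 of histone H3, was at 9.44, 15.1, 15.8 and 11.1 CPM in the odd rows and at 2.15, 1.92, 0.876 and 1.24 CPM in the even rows. Its pooled ratio was 7.78 (5.52 to 11.3), with no overlap between the rows. Dntt was at 232, 394, 343 and 424 CPM in the odd rows and at 34.5, 37.9, 32.0 and 26.4 CPM in the even rows, a 10.3-fold difference (9.54 to 11.1). How many of all genes separate odd from even rows in this way was not counted. Row 11 had the lowest level of each gene among the odd rows. Odd rows contributed 93.9% of the Rag1 UMIs, 93.6% of the Rag2 UMIs and 95.1% of the Dntt UMIs, with 42.5% of the cells and 65.3% of the gene UMIs.

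Counted per cell, Rag1 was detected in 7.91% to 15.1% of the cells of an odd row and in 0.856% to 1.56% of those of an even row. Rag2 was detected in 5.53% to 9.90% and in 0.347% to 0.685% of cells. Dntt was detected in 28.4% to 41.7% and in 8.67% to 10.6% of cells. After each cell was thinned to 2000 UMIs, to remove the difference in depth, the ranges were 2.83% to 5.41% against 0.484% to 0.835% for Rag1, 1.30% to 2.17% against 0.140% to 0.480% for Rag2 and 18.1% to 28.5% against 4.92% to 6.44% for Dntt. The odd rows thus stayed above the even rows at equal depth for each of the 3 genes.

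**Figure D2:**
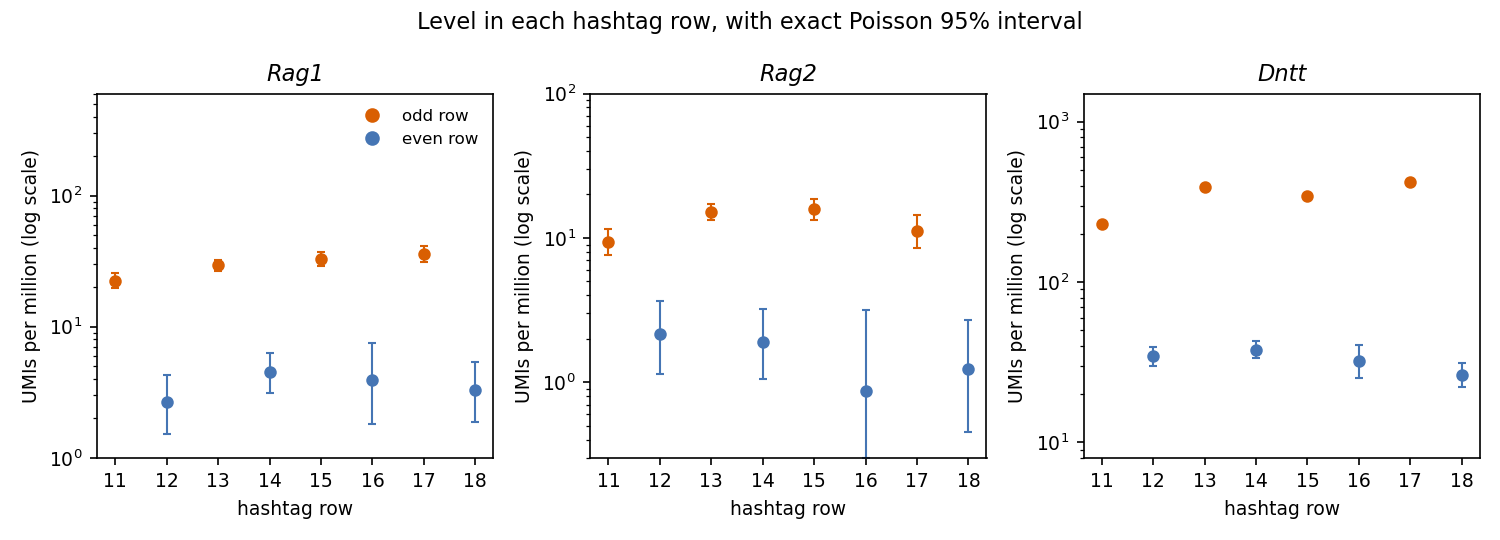
Level of Rag1, Rag2 and Dntt in each hashtag row in CPM on a log axis, with points for the pooled cells of a row and bars for the exact Poisson 95% interval. The odd rows lie between 22.5 and 35.9 for Rag1 and the even rows between 2.64 and 4.52, and for all 3 genes the ranges of odd and even rows are separate.

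A reference level was taken from cells that should lack the recombinase. Cells from any row with at least 1 UMI of Klrb1c and 3 of Nkg7, a granule protein of cytotoxic lymphocytes (3263 cells, median 3607 UMIs), had 43 UMIs of Rag1, or 3.33 CPM (2.41 to 4.48), in 1.20% of cells. Rag2 stood at 2.01 CPM in 0.613% of these cells, and Dntt at 35.6 CPM (32.4 to 39.0) in 9.96%. These values are called the background below, and their source, free RNA or other, was not tested. Of these cells 3233 came from the even rows, so the level of the even rows as a whole, at 3.61, 1.71 and 33.5 CPM, is no independent comparison with it. The even-row cells outside the gate had 4.26 CPM of Rag1, 2.38 CPM of Rag2 and 42.4 CPM of Dntt, against 3.19, 1.28 and 27.9 CPM in the even-row cells inside it. The 30 gated cells of the odd rows had 7.57 CPM of Rag1, 25.2 CPM of Rag2 and 280 CPM of Dntt. The background was not a uniform floor either: Dntt in non-cycling cells (defined below) of the Cd79a class was at 0.402 of it (0.290 to 0.545), and in those of the Cst3 class at 0.728 (0.580 to 0.907).

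Within the odd rows, cells were divided by the first match of Cd79a (at least 2 UMIs), Cst3 (at least 5), Cd8b1, the CD8 beta chain (at least 2), and Ikzf2, which encodes Helios (at least 2), leaving the rest. These classes are gates on 1 gene each and not cell types. The Cd8b1 class held 602 of the 4249 cells, the Ikzf2 class 1030, the Cst3 class 972, the Cd79a class 810 and the rest 835. Against the labelled iNKT identity, the Cd8b1 class was higher than the Ikzf2 class in most listed genes of DP thymocytes. Of 10 DP markers, 8 were at least 2-fold above the Ikzf2 class and 1, Cd1d1, at least 2-fold below, with a median log2 ratio of 1.55 against -0.14 for all genes with at least 10 CPM in either class. By the same measure 2.23% of 8879 genes were higher and 14.3% were lower. Cd8b1 is itself the gate and counts among the 8. Ptcra, the pre-TCR alpha chain, was at 113 CPM in the Cd8b1 class and at 9.17 CPM in the Ikzf2 class. Cd8a, the CD8 alpha chain, was at 144 and 20.3 CPM. Cd4, the other coreceptor of DP cells, was at 16.99 and 10.0 CPM. Within the Cd8b1 class Cd4 was at 9.66 CPM in the 474 dividing cells defined below. It was at 167 CPM in the 97 cells without a sign of division. In the rest it was at 50.9 CPM and in the even rows at 26.6 CPM. The rest was also above the Cd8b1 class for Satb1 (749 against 589 CPM), Ccr9 (154 against 57.1) and Cd1d1 (34.9 against 23.2). It was below the class for other DP markers, among them Cd8a, Arpp21, Themis and Ptcra. Within the Cd8b1 class, Ccr9 was at 36.0 CPM in the dividing cells and at 518 CPM in those without a sign of division.

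The Cd8b1 class was the main site of recombinase transcripts. Rag1 stood at 143, 79.2, 77.5 and 75.1 CPM in this class in rows 11, 13, 15 and 17, from 123, 258, 186 and 125 UMIs. In the rest it stood at 31.1, 36.8, 50.9 and 51.7 CPM, and in the Ikzf2 class at 7.28, 6.35, 7.85 and 5.73 CPM. In every odd row the Cd8b1 class was thus highest and the rest second, with Poisson intervals that did not meet except in row 17, where they did. The Cst3 class, at 7.56 to 20.0 CPM, the Ikzf2 class and the Cd79a class, at 2.79 to 13.8 CPM, changed order between rows. Pooled over the rows, Rag1 was at 84.6 CPM (78.4 to 91.1) in the Cd8b1 class, in 46.8% of its cells, and at 6.71 CPM (4.96 to 8.87) in the Ikzf2 class, in 3.11%. The ratio was 12.6 (9.43 to 17.2), with 19.7, 12.5, 9.87 and 13.1 in the separate rows. Against the Klrb1c and Nkg7 cells the Cd8b1 class was 25.4-fold higher (18.7 to 35.4), and against the rest 2.08-fold (1.79 to 2.43). Without row 11 its level was 77.7 CPM.

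Rag2 followed the same order with a smaller spread. It stood at 34.9, 37.1, 32.5 and 24.0 CPM in the Cd8b1 class of rows 11, 13, 15 and 17, and at 15.9, 16.5, 17.7 and 10.6 CPM in the rest. In the Ikzf2 class it stood at 11.8, 4.44, 8.46 and 2.15 CPM. The order Cd8b1, rest, Ikzf2 held in all 4 rows. The Poisson intervals of the rest met those of the Cd8b1 class in rows 11, 15 and 17. Pooled, Rag2 was at 32.9 CPM (29.1 to 37.1) in 27.9% of the cells of the Cd8b1 class and at 6.03 CPM (4.38 to 8.09) in 3.30% of those of the Ikzf2 class. The ratio of 5.46 (3.96 to 7.69) ranged from 2.95 in row 11 and 3.84 in row 15 to 8.36 in row 13 and 11.2 in row 17.

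Dntt was spread more evenly over the classes. It stood at 596, 823, 645 and 800.4 CPM in the Cd8b1 class of the 4 rows and at 531, 724, 560.3 and 569 CPM in the rest, so that the Cd8b1 class exceeded the rest only 1.21-fold (1.16 to 1.26). In the Ikzf2 class it stood at 327, 254, 195 and 176 CPM. Pooled, Dntt was at 743 CPM (724 to 761) in 89.5% of the cells of the Cd8b1 class, 616 CPM in 52.0% of the rest and 237 CPM (226 to 248) in 25.0% of the Ikzf2 class. The ratio of the Cd8b1 class to the Ikzf2 class was 3.14 (2.97 to 3.31), from 1.82 in row 11 to 4.55 in row 17, and its interval lay below those of Rag1 and Rag2. A single cell held at most 14 UMIs of Rag1, 7 of Rag2 and 44 of Dntt. Thinned to 2000 UMIs per cell, 15.7% of the Cd8b1 class had Rag1, 6.61% Rag2 and 70.2% Dntt, against 1.01% for Rag1 and 14.8% for Dntt in the Ikzf2 class.

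The share of molecules shows the same contrast. The Cd8b1 class held 14.2% of the odd-row cells and 21.2% of their gene UMIs, but 61.2% of the Rag1, 52.5% of the Rag2 and 45.6% of the Dntt UMIs. The rest held 20.2%, 17.4% and 26.0%, and the Ikzf2 class 4.34%, 8.59% and 12.99%. Only 2.30%, 2.15% and 1.503% lay in the Cd79a class.

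**Figure D3:**
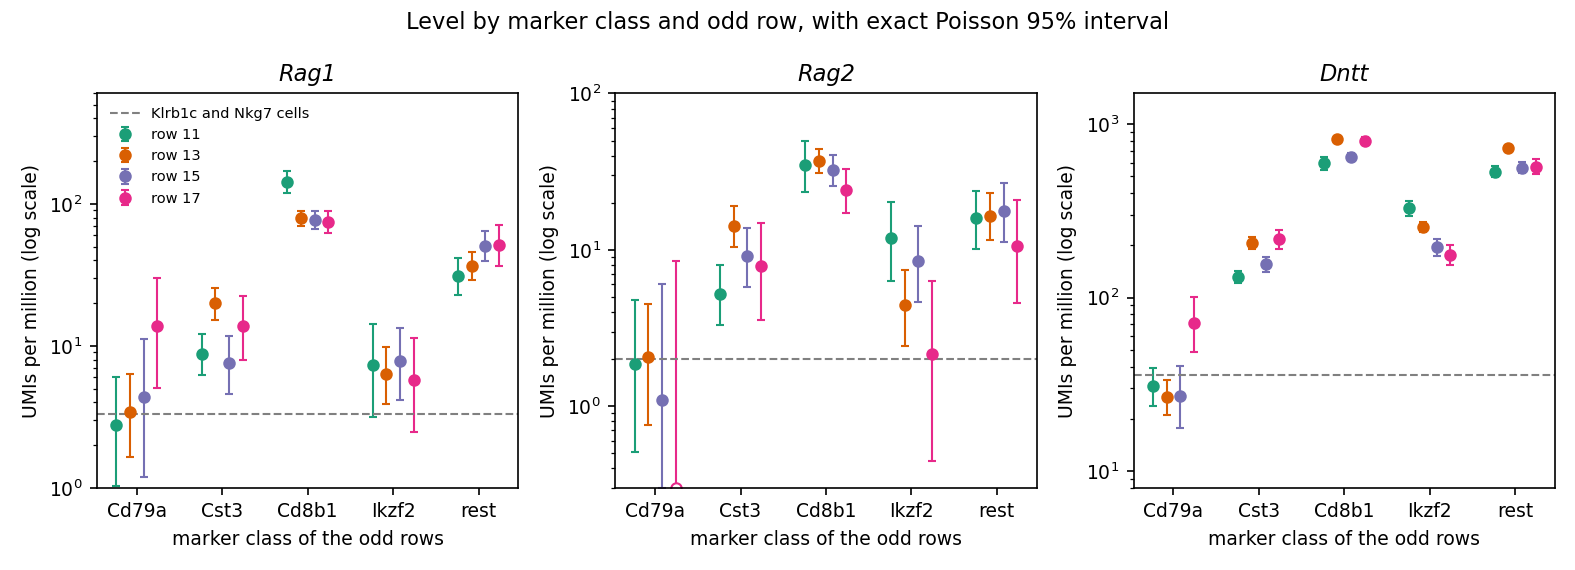
Level of Rag1, Rag2 and Dntt by marker class and odd row in CPM on a log axis, with bars for the exact Poisson 95% interval, an open marker at the lower edge for a count of 0 and a dashed line for the Klrb1c and Nkg7 cells. In all 4 rows the Cd8b1 class is highest for each gene and the rest second, while the Cd79a class lies at or near the dashed line except for Rag1 and Dntt in row 17.

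Pooled over rows and states, the Cd79a class lay near the background for each gene: Rag1 at 4.05 CPM, Rag2 at 1.71 CPM and Dntt at 31.2 CPM. For Dntt this joined 70.4 CPM (58.1 to 84.5) in its 144 cycling cells and 14.3 CPM (10.47 to 19.1) in its 469 non-cycling cells, above and below the background. Of the genes of pro-B and pre-B cells, Vpreb1 was at 0.779 CPM, Igll1 at 0.156 CPM and Vpreb2 had no UMI, while Vpreb3 was at 16.2 CPM in the Cd79a class and at 0 to 1.64 CPM in the other classes. In the Cst3 class Rag1 was at 12.3 CPM, Rag2 at 8.99 CPM and Dntt at 168 CPM, all above the background. Most of the Cst3 cells with a Rag1 or Rag2 UMI, 57 of 93 (61.3%), also met the limit of another class marker, compared with 73 of 879 (8.30%) without one, and their median depth was 18534 UMIs against 10062. In the 842 Cst3 cells that met no other limit, Rag1 was at 3.30 CPM, Rag2 at 2.96 CPM and Dntt at 88.5 CPM, and in the 130 that did they were at 47.7, 32.8 and 480.1 CPM. Whether these were 2 cells of the same row in 1 droplet was not tested. In the Cd8b1 class itself the 414 cells that met no later class limit had the higher level of each gene, with Rag1 at 103 CPM against 54.8 CPM in the other 188.

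Cells that carried Rag1 tended to carry the other genes. Of the 602 cells of the Cd8b1 class, 282 had Rag1, 168 had Rag2 and 539 had Dntt. Rag1 and Rag2 were found together in 113 cells, where the product of their shares gives 78.7, and the count lay above the product in each row (15, 42, 35 and 21 cells against 9.08, 31.5, 23.1 and 15.4). Of the Rag2 cells, 67.3% had Rag1, and of the Rag1 cells, 40.1% had Rag2. Dntt was present in 96.8% of the Rag1 cells and in 98.2% of the Rag2 cells. All 3 were present in 111 cells and none in 53. Deep cells show more of every gene, and the part of depth in these counts was not tested.

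The classes differed in cell division and in depth, and both moved with Rag1. Cells with at least 2 UMIs of Mki67 and Top2a, which mark dividing cells, were called cycling, and cells with 0 were called non-cycling. Cycling cells made up 78.7% of the Cd8b1 class and 30.0% of the Ikzf2 class. In the Cd8b1 class, Rag1 was at 76.0 CPM in 474 cycling cells (median 16149.5 UMIs) and at 267 CPM in 97 non-cycling cells (median 2423 UMIs), a ratio of 0.285 (0.227 to 0.362). By row the ratio was 0.209, 0.340, 0.338 and 1.31. The value of row 17 rested on 4 Rag1 UMIs in 10 non-cycling cells, with an interval of 0.499 to 4.90, so its order was not settled. Counted as molecules per cell the pooled order was opposite, with 1.23 Rag1 UMIs in a cycling cell and 0.887 in a non-cycling cell.

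At matched depth the order of Rag1 turned. Among cells with 2000 to below 5000 UMIs, a range chosen after the data were seen, Rag1 was at 502 CPM (363 to 676) in 26 cycling cells and at 212 CPM (142 to 305) in 48 non-cycling cells, a ratio of 2.37. In cells with 5000 to below 10000 UMIs it was at 134 and 90.3 CPM, and in cells with 10000 to below 40000 UMIs at 67.0 and 19.7 CPM, the last from 1 UMI in 4 cells, and the intervals of the 2 states met in both of these ranges. Rag1 CPM thus fell from shallow to deep cells in both states. Of the 86 Rag1 UMIs of the non-cycling cells, 49 (57.0%) came from 33 cells with fewer than 2000 UMIs, and 54 came from row 11. A gate of 2 UMIs takes shallow cells only where Cd8b1 is a large fraction of their RNA, and how far this set the levels was not tested.

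Rag2 did not share the low ratio. It was at 32.9 CPM in cycling and 31.0 CPM in non-cycling cells of the Cd8b1 class, a ratio of 1.06 (0.567 to 2.24), and at 140 and 36.6 CPM among cells with 2000 to below 5000 UMIs, a ratio of 3.83. Dntt was at 749 CPM in cycling and 598 CPM in non-cycling cells, a ratio of 1.25 (1.08 to 1.45). Its value was higher in cycling cells in each of the 3 depth ranges, with 572 against 483 CPM in the shallowest. The intervals of the 2 states met in all 3 ranges. Thinned to 2000 UMIs per cell, Rag1 was present in 15.2% of cycling and 16.99% of non-cycling cells, Rag2 in 6.82% and 4.25%, and Dntt in 73.3% and 49.6%.

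**Figure D4:**
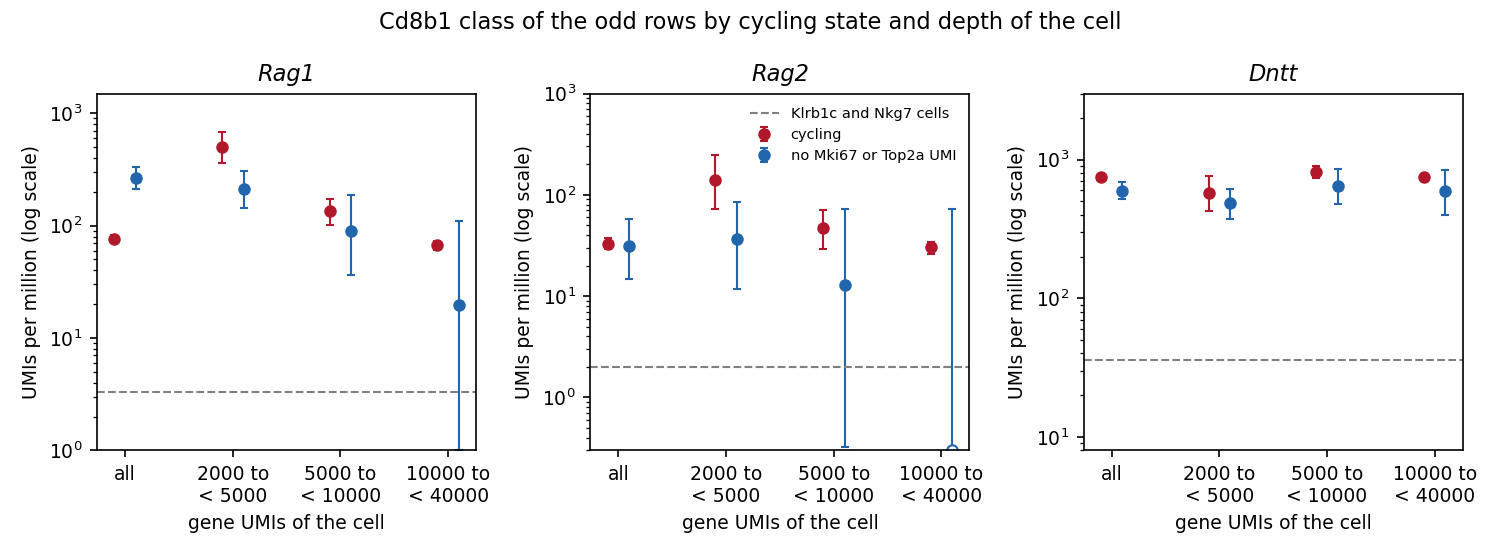
Rag1, Rag2 and Dntt in cycling (red) and non-cycling (blue) cells of the Cd8b1 class of the odd rows, for all cells and for 3 ranges of gene UMIs per cell, in CPM on a log axis with exact Poisson 95% intervals, an open marker for a count of 0 and a dashed line for the Klrb1c and Nkg7 cells. Over all cells Rag1 is lower in cycling cells (76.0 against 267), whereas within each range of depth its value is higher in them, with intervals that meet in the 2 deeper ranges.

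The receptor loci on which the recombinase acts also differed along the split by cycling, whose 2 sides differ in depth and of which row 11 gave 55 of the 97 non-cycling cells. TRAV segments summed to 125 CPM in cycling and 865 CPM in non-cycling cells of the Cd8b1 class, and the constant segment Trac was at 24.3 and 171 CPM. The sum takes every gene named Trav, including any shared with the delta chain, so it does not measure Tcra joining alone. TRBV segments summed to 1984 and 3950.5 CPM, although per cell to 32.1 and 13.1 UMIs. Trdc, the constant segment of the delta chain, which is deleted when Tcra rearranges, went the other way with 209 and 71.3 CPM, as did Ptcra with 116 and 62.0 CPM. Among cells with 2000 to below 5000 UMIs the orders were the same, with TRAV at 420.3 and 1156 CPM, TRBV at 2113 and 4631 CPM, Trac at 58.4 and 241 CPM, Trdc at 81.7 and 43.9 CPM and Ptcra at 105 and 36.6 CPM. The intervals of Trdc and of Ptcra met in this range. Among the cycling cells, the 242 with a Rag1 UMI had TRAV at 81.5 CPM and the 232 without at 174 CPM, while TRBV was at 1962 and 2009 CPM. Cd8b1 itself, on which the gate rests, was lower in the cycling cells (374 against 1504 CPM).

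**Figure D5:**
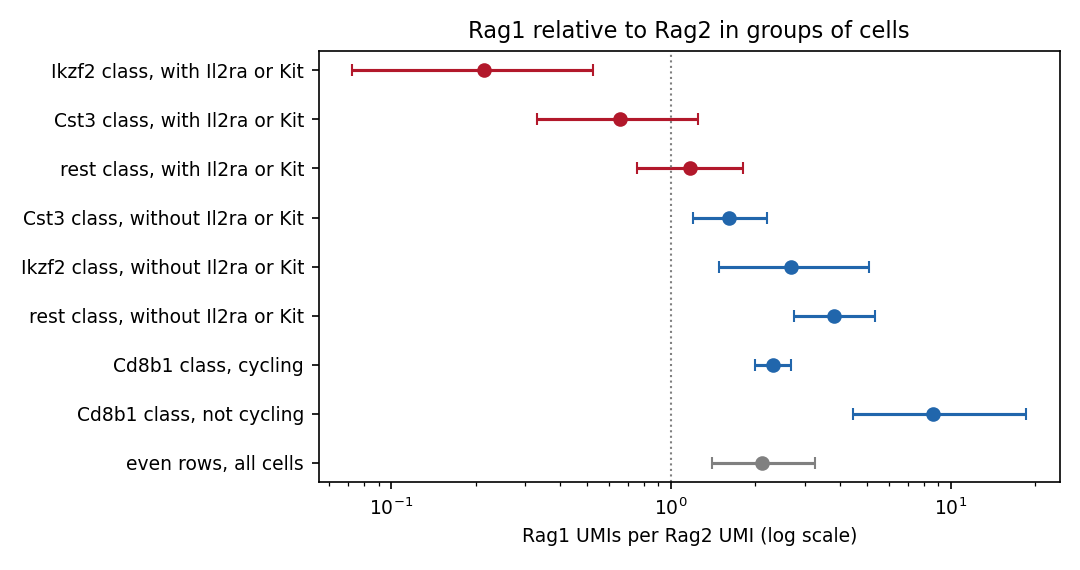
Rag1 UMIs per Rag2 UMI in groups of cells on a log axis, with exact 95% binomial intervals; groups with at least 2 UMIs of Il2ra and Kit are red, the other groups of the odd rows are blue, and the even rows are grey. The red groups lie between 0.214 and 1.17 and the blue ones between 1.62 and 8.60, the last from 10 UMIs of Rag2. The interval of the rest with the pair meets those of the Cst3 and Ikzf2 classes without it. The intervals of the Cst3 class with and without the pair also meet.

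The proportion of Rag1 to Rag2 changed between groups of cells. Il2ra and Kit, which encode the interleukin-2 receptor alpha chain and the stem cell factor receptor and are both used in the thymus to follow DN stages, divided the classes further, a split made after the data were seen. Of the rest, 196 cells had at least 2 UMIs of the pair. Cpa3, a protease of early thymic progenitors and mast cells, was at 306 CPM in these and at 20.7 CPM in the other 639. In the cells with Il2ra or Kit, Rag1 was at 25.3 CPM (18.7 to 33.4) and Rag2 at 21.7 CPM (15.6 to 29.3). In the cells without, Rag1 was at 48.6 CPM (41.8 to 56.3) and Rag2 at 12.8 CPM. Pooled over rows, Rag1 had a ratio of 0.520 (0.371 to 0.716) with to without Il2ra or Kit, and Rag2 a ratio of 1.70 (1.09 to 2.63). Neither direction held in every row: the Rag1 ratio was 0 in row 11, from no UMI, and 0.515, 1.17 and 1.13 in rows 13, 15 and 17, and the Rag2 ratio was 0.607, 4.15, 1.41 and 1.72.

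Expressed as Rag1 UMIs per Rag2 UMI, the value was 1.17 (0.757 to 1.81) in the rest with Il2ra or Kit and 3.81 (2.75 to 5.37) in the rest without. In the Ikzf2 class it was 0.214 (0.0725 to 0.527) with, from 6 UMIs of Rag1 and 28 of Rag2, and 2.69 (1.48 to 5.11) without. In the Cst3 class it was 0.654 (0.333 to 1.25) and 1.62 (1.20 to 2.20). Pooled over rows, the cells with Il2ra or Kit were lower in each of the 3 classes, with intervals that met in the Cst3 class. Rows were uneven within the rest with Il2ra or Kit, where the 4 odd rows had 0, 23, 15 and 11 UMIs of Rag1 and 6, 27, 6 and 3 of Rag2, so that rows 15 and 17 lay above 1 and rows 11 and 13 below. The Cd8b1 class had 2.57 Rag1 UMIs per Rag2 UMI (2.23 to 2.97), at 2.31 in its cycling and 8.60 (4.46 to 18.6) in its non-cycling cells. The last value came from 86 UMIs of Rag1, 54 of them from row 11, and 10 of Rag2. Among cells with 2000 to below 5000 UMIs, the counts of Rag1 and Rag2 were 43 and 12 in cycling cells. In non-cycling cells of this range they were 29 and 5.

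In the rest and the Ikzf2 class, Dntt was higher in the cells with Il2ra or Kit in every odd row. It stood at 835, 941, 722 and 938 CPM in the rest with the pair in rows 11, 13, 15 and 17, and at 354, 548, 520 and 440 CPM in the rest without. Pooled, these were 882 CPM (841 to 925) and 476 CPM, a ratio of 1.86 (1.73 to 1.98). The Cd8b1 class was below the former at a ratio of 0.842 (0.798 to 0.889), with intervals that included 1 in rows 15 and 17. In the Ikzf2 class, Dntt was at 876, 828, 445 and 385 CPM in 145 cells with Il2ra or Kit and at 128, 147, 123 and 143 CPM in 885 cells without, and the groups did not overlap between rows. The share of all genes that separate these groups was not counted. The pooled ratio was 4.85 (4.41 to 5.33), and for Rag2 it was 7.72 (4.04 to 15.3). At 671 CPM (628 to 716) pooled, the Ikzf2 cells with the pair were below the Cd8b1 class, but this order did not hold in every row. In rows 15 and 17 they were at 445 and 385 CPM against 645 and 800.4 CPM. In rows 11 and 13 they were at 876 and 828 CPM against 596 and 823 CPM. In the Cst3 class the ratio for Dntt was 1.41 (1.28 to 1.55) pooled, but 1.79, 1.02, 2.17 and 0.877 in the 4 rows. In the Ikzf2 class Cpa3 moved with the split also, at 278 and 10.2 CPM. What these Ikzf2 cells with Il2ra or Kit are was not tested.

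Outside the cells with Il2ra or Kit, Rag1 and Dntt exceeded the background in the dividing cells of the Ikzf2 class. Over the whole class Dntt was at 379 CPM in cycling and 58.3 CPM in non-cycling cells, a ratio of 6.50 (5.49 to 7.74), with 5.50, 7.74, 6.40 and 4.61 in the separate rows. In the 495 non-cycling cells without Il2ra or Kit, Rag1 was at 3.05 CPM, Rag2 at 2.61 CPM and Dntt at 32.2 CPM. Relative to the Klrb1c and Nkg7 cells these were ratios of 0.915 (0.347 to 2.05), 1.30 (0.437 to 3.22) and 0.905 (0.698 to 1.16), so that no level above the background was detectable at this depth. In the 243 cycling cells without Il2ra or Kit, Dntt was at 252 CPM, 7.07-fold above the background (6.28 to 7.97). Rag1 was at 11.6 CPM, 3.49-fold above it (2.15 to 5.63). The ratio for Rag2, 1.75 (0.753 to 3.75), had an interval that included 1. Its background includes the 30 gated odd-row cells at 25.2 CPM, whereas the even-row cells inside the gate were at 1.28 CPM. A Rag2 ratio to the even-row cells alone was not computed. The excess in dividing cells was not particular to the Ikzf2 class. In the cycling cells of the Cst3 class, not split by Il2ra or Kit, the ratios to the background were 6.26 (4.38 to 9.08) for Rag1, 8.02 (5.14 to 12.9) for Rag2 and 8.30 (7.48 to 9.22) for Dntt. What underlies the excess in either class was not tested.

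Other genes of V(D)J recombination were less restricted. Of 19 genes of the reaction and of non-homologous end joining, 18 had at least 10 CPM in the Cd8b1 or the Ikzf2 class. Of these, 4 were at least 2-fold higher in the Cd8b1 class, beside 2.23% of all genes, and 2 were at least 2-fold lower, beside 14.3%. The median log2 ratio was -0.10, against -0.14 for all genes tested. The higher ones were Xrcc6, the Ku70 subunit that binds broken ends, at 319 and 114 CPM, the ligase Lig4 at 34.5 and 15.7 CPM, Hmgb2, a DNA-bending cofactor of the recombinase, at a ratio of 2.29, and the histone gene H2afx, whose ratio of 2.00 was at the limit. The count was 2 without row 13. The lower ones were the gap-filling polymerases Poll, at a ratio of 0.403, and Polm, at 0.312. Prkdc, the DNA-PK catalytic subunit, and Dclre1c, the Artemis nuclease that opens hairpins, had ratios of 0.754 and 0.651. Hmgb2 was also higher in the cycling cells of the Cd8b1 class (3.82-fold), and the part of cell division in the list was not tested.

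Among 20 known or candidate regulators of the 3 genes, 4 were at least 2-fold higher and 6 at least 2-fold lower in the Cd8b1 class, beside 2.23% and 14.3% of all genes, with a median log2 ratio of -0.48 against -0.14 for all genes. The higher ones included Skp2, a ubiquitin ligase subunit that removes RAG2 protein at entry into S phase (2.65-fold). Also among them were the chromatin organiser Satb1 (2.53-fold) and Bcl11b, a factor of T lineage commitment (2.32-fold). In the rest, Satb1 was at 749 CPM and Bcl11b at 219 CPM, against 589 and 217 CPM in the Cd8b1 class. The part of cell division in these ratios was not tested. The lower ones included both inhibitors of E proteins, with Id2 at 19.1 and 47.7 CPM and Id3 at 242 and 607 CPM. The E protein genes themselves differed less, with ratios of 0.913 for Tcf3 and 1.57 for Tcf12. Foxo1, at a ratio of 0.199, Tox at 0.232, Zfp608 at 0.0458 and Ikzf3, which encodes Aiolos, at 74.2 and 256 CPM were the other 4 that were lower.

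The remaining marker lists described the 2 classes by the same limit, which 2.23% of all genes passed as higher and 14.3% as lower. All 7 genes of the Helios or agonist selected list were lower in the Cd8b1 class, Ikzf2 being the gate. Of the mature iNKT1 list 3 of 3 tested genes were lower, and of the mature SP list 3 of 4. Of the DN list 2 of 6 were higher (Ptcra and Trdc) and 3 lower (Il2ra, Kit and Cpa3). Among B cell genes 1 of 2, Ighm, was higher, and of the pro-B and pre-B list the 2 tested were Rag1 and Dntt themselves. Of myeloid genes 1 of 2, H2-Aa, was lower, and of plasmacytoid dendritic cell genes 1 of 3, Ly6d, was higher.

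The genes whose levels ran most like those of the members were found by the Pearson correlation of log2(CPM + 10) over 24 groups, namely the classes of each odd row and the 4 even rows, among 9200 genes. The groups share the library, and classes of 1 row differ in depth, so the values are a description. The first 10 for Rag1 included Fam163b (r = 0.966), Dgkeos (0.964) and Ptcra (0.951), and Rag2 stood at rank 27 (0.906) and Dntt at rank 183 (0.843). For Rag2 the closest were Gm525 (0.933) and Ptcra (0.932), with Rag1 at rank 19 and Dntt at rank 78. For Dntt the closest were 1500009L16Rik (0.988) and Dtymk, a kinase of thymidylate synthesis (0.981), and the first 10 included Xrcc6 (0.977) and Arpp21 (0.976). Ptcra was thus among the first 10 of both recombinase genes.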

How the data were processed

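Cells were measured as 1 pooled 10x library. According to the methods, the authors aligned reads to mm10 and counted UMIs with Cell Ranger 6.0.0, and the processing notes also name Seurat. The deposited matrix holds raw UMI counts per gene, hashtag and barcode, and it was used without normalization by the authors. Cells had at least 1000 genes, at most 5% mitochondrial UMIs and at least 80% of at least 10 hashtag UMIs on 1 of 8 rows, which removed droplets with hashtags of several rows. No doublet caller was run, 2 cells of 1 row in a droplet were not removed, and free RNA was not subtracted. Levels are summed UMIs per 1000000 gene UMIs (CPM). Shares at 1 depth are expected shares after thinning to 2000 UMIs, with shallower cells left out. The ranking of genes by correlation was checked on simulated data. Genes named are the 3 members, the class genes, the marker, V(D)J and regulator lists, and for each member the 10 genes with the highest correlation among those with at least 20 CPM in 1 group of at least 20 cells. Genes outside it (Cd24a, the hashtag and cycling genes, receptor segments and B230118H07Rik) are given as context, and 1 gene of these lists is not reported here. The members and lists were chosen with earlier results of these data known. The split by Il2ra and Kit and the ranges of depth were added after the data were seen. Alternatives varied the filters, the hashtag rule, the class limits and order, the rows pooled and the averaging. Python 3.11.15, NumPy 2.4.6, SciPy 1.17.1, pandas 2.3.3 and matplotlib 3.10.9 were used.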

Additional observations from a re-analysis of the deposited data

Results flagged for a closer look

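Among the 4 odd rows, 3 of 15 sets of class levels had 1 row far from the other 3 (Dixon's rule at the 95% level). By chance about 1 in 20 such sets is flagged, and the labels do not say that the rows are 1 group. In the Cd8b1 class, Rag1 was at 143 CPM in row 11 and at 75.1 to 79.2 CPM in the other rows. This class of row 11 held 111 cells with a median of 2629 UMIs, of which 40.5% were cycling, whereas the medians of rows 13, 15 and 17 were 14254, 15663 and 16522.5 UMIs and 85.3% to 89.1% were cycling. In the Cd79a class, Rag1 was at 13.8 CPM in row 17 and at 2.79 to 4.36 CPM elsewhere, and Dntt was at 71.2 CPM in row 17 and at 26.8 to 30.7 CPM elsewhere.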

How the results depend on the processing

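Of 115 alternative values, 77 stayed within the 95% counting interval of the reported value or within 1.5 times a reported count, 37 moved by more and 1 reversed, and all 39 ratios of the Cd8b1 to the Ikzf2 class stayed above 1. The cause of these moves was not tested. In the Cd8b1 class, the Rag1 level (84.6 CPM) was 93.4 with looser cell filters (500 genes, 10% mitochondrial UMIs), 122 with at most 4000 genes, 103 without cells of more than 1 class marker, 91.4 with class limits 1 UMI higher and 163 as a mean over cells. Leaving out 1 odd row at a time gave 77.7 to 88.2. Rag2 (32.9 CPM) was 37.5 with higher limits and 45.4 as a mean over cells, and leaving out rows gave 30.1 to 35.1. Dntt (743 CPM) was 777 with at most 4000 genes, 796 without cells of more than 1 class marker and 768 with higher limits, and leaving out rows gave 689 to 783.

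The ratio of the Cd8b1 to the Ikzf2 class, 12.6 for Rag1, was 8.14 with the looser cell filters, 21.02 with at most 4000 genes, 17.5 with higher limits, 27.9 as a mean over cells, 5.66 with 10 CPM added and 4.86 with Ikzf2 matched before Cd8b1. For Rag2 (5.46) it was 9.90 with at most 4000 genes, 10.8 as a mean over cells, 2.68 with 10 CPM added, 2.87 with Ikzf2 first and 12.2 without cells of the Ikzf2 class with Il2ra or Kit. For Dntt (3.14) it was 5.80 with at most 4000 genes, 3.36 without cells of more than 1 class marker, 4.50 with higher limits, 5.02 as a mean over cells, 2.19 with Ikzf2 first and 5.36 without Il2ra or Kit cells. Leaving out rows gave 11.8 to 13.7 for Rag1, 4.16 to 6.53 for Rag2 and 2.90 to 3.44 for Dntt.

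The ratio of cycling to non-cycling cells in the Cd8b1 class reversed for Rag1, from 0.285 to 2.37 among cells with 2000 to below 5000 UMIs, where Rag2 moved from 1.06 to 3.83. For Dntt (1.25) it was 1.49 with at least 90% of at least 20 hashtag UMIs and 1.04 with higher limits. Leaving out rows gave 0.234 to 0.464 for Rag1, the highest without row 11, 0.879 to 1.47 for Rag2 and 1.13 to 1.39 for Dntt. No analysis that pairs rows with each other was possible because no label pairs them. Classes and states were compared within single rows as well as pooled. Few UMIs per class and row limit the values of Rag2.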
